A study of Homo sapiens with 23 samples.

Results

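H3K9me3 and H3K36me3 are 2 methylation marks of histone H3 that are usually found in different kinds of chromatin, and the regions described here carried both, outside chromosome 19. They were sought in NCI-H23, an established line of non-small cell lung cancer, by chromatin immunoprecipitation followed by sequencing (ChIP-seq). The intervals were chosen by the peak lists of H3K9me3 and H3K36me3. Peaks of the 2 H3K9me3 replicates were intersected, those of H3K36me3 likewise, and an H3K9me3 interval was kept where it shared at least 1 bp with an H3K36me3 interval on an autosome other than 19. This gave 8542 intervals out of 151758 H3K9me3 intervals on those 21 autosomes (5.63%), and out of 169394 on all chromosomes. They are called co-marked intervals, and the other 143216 are called H3K9me3-only intervals. The 130538 H3K36me3 intervals on the same autosomes without H3K9me3 are called H3K36me3-only intervals.

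The series has 23 samples, all of NCI-H23 cells: 2 replicate libraries for each of 11 targets, and 1 input, which was not analysed here. The targets are BRD2, a bromodomain protein of the BET family that binds acetylated histones, and the marks H4K5acK8ac, H4K5ac, H4K8ac, H4K12ac, H3K27ac, H3K4me1, H3K4me3, H3K36me3, H3K9me3 and H3K27me3. No genotype or time differs between the groups. A treatment protocol with the BET inhibitor JQ1 or its solvent DMSO is attached to all samples, and the labels do not say which library had which. Whether replicates came from separate cultures is not stated, and NCI-H23 is a single tumour line with a rearranged genome, so the number of copies of a region was not known. Between 21580 and 277462 peaks were called per library. Read depth is unknown, because the lists hold no read numbers. Positions are 1-based in hg19, the build named in the submitters' processing notes. No gene annotation or genome of that build was used, so regions are given by position without genes or sequence.

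H3K9me3 is the mark of constitutive heterochromatin. It is written by enzymes such as SETDB1 and SUV39H1 and bound by HP1 proteins, and it silences repeats and many gene clusters. H3K36me3 is laid down by SETD2, which travels with elongating RNA polymerase II, so it covers the bodies of transcribed genes. Genes for zinc finger proteins with a KRAB domain are the textbook case in which both marks lie on the same gene. The largest group of those genes is on chromosome 19, which is left out here.

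Co-marked intervals occurred on all 21 autosomes. Their number ran from 105 on chromosome 21 to 937 on chromosome 2. As a share of the H3K9me3 intervals of a chromosome they were most frequent on chromosome 9 (10.3%, 353 of 3418), chromosome 17 (9.72%, 378 of 3887) and chromosome 1 (7.27%, 770 of 10593). The lowest shares were 4.48% on chromosome 10, 4.496% on chromosome 8 and 4.499% on chromosome 18. On chromosome 19 the share was 19.99%, with 2220 of 11103 intervals. These shares follow from the rule and carry no test.

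**Figure D1:**
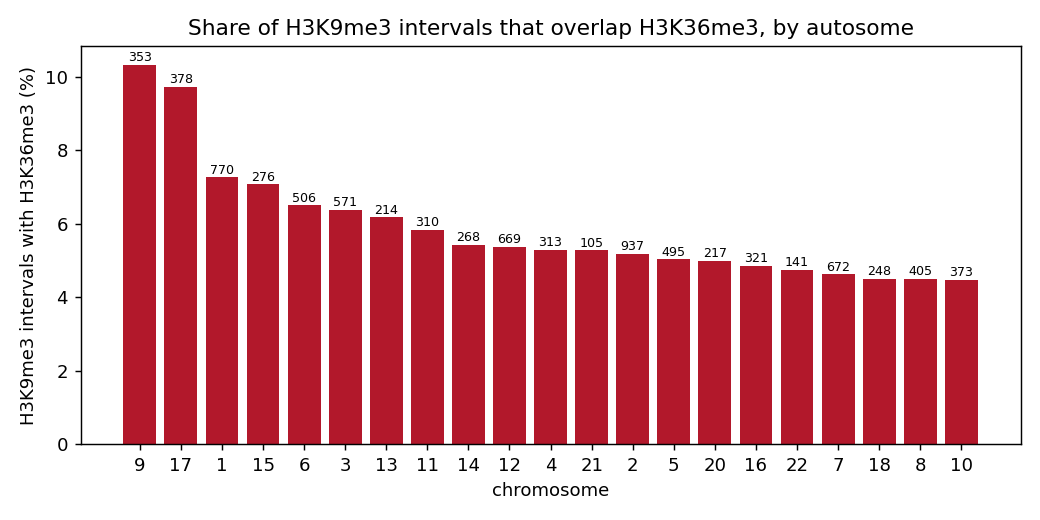
Bars give the percent of the H3K9me3 intervals of each autosome but 19 that overlapped H3K36me3, and the labels over the bars are the numbers of such intervals. Chromosomes 9 and 17 stand highest at 10.3% and 9.72%, and all other autosomes lie between 4.48% and 7.27%.

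The overlap was mostly not marginal. Of the co-marked intervals, 4970 (58.2%) lay wholly inside an H3K36me3 interval and 7225 (84.6%) were covered over at least 50% of their length. The shared stretch had a median of 369 bp, and the shared bases summed to 4.82 Mb out of 6.29 Mb of co-marked intervals. Just inside the threshold were 59 intervals that shared 10 bp or less, with a median of 6 bp. Just outside it were 289 H3K9me3-only intervals within 100 bp of H3K36me3, with a median gap of 51 bp. The median gap of all H3K9me3-only intervals to H3K36me3 was 345 kb, so most of them were far from the threshold.

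The partner intervals of H3K36me3 were wider than the rest, which a choice by overlap favours. Those that held H3K9me3 numbered 7235, 5.25% of all H3K36me3 intervals, and had a median width of 797 bp against 473 bp for the rest. H3K36me3 intervals of at least 10 kb made up 1.23% of their list and met 638 co-marked intervals (7.47%). The first share counts intervals and not bases, so it is no background for the second. A single H3K36me3 interval met up to 17 co-marked intervals, and 92 met 5 or more.

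Width differed between the sets, and a wider interval can meet another list more often. Co-marked intervals had a median width of 468 bp, with quartiles of 296 and 827 bp. H3K9me3-only intervals had a median of 357 bp, with quartiles of 264 and 593 bp, so the ratio of medians was 1.31. The ratio was 1.16 to 1.65 under the alternatives tried. Between width classes the share of H3K9me3 intervals that were co-marked ran from 3.39% under 200 bp to 11.9% at 1600 bp or more.

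**Figure D2:**
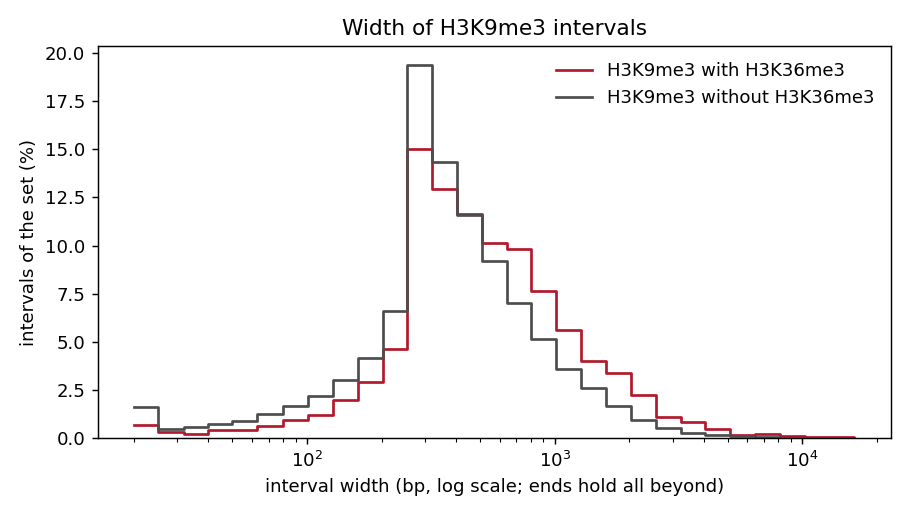
Width of H3K9me3 intervals in bp on a log axis, as percent of the co-marked (red) and H3K9me3-only (grey) intervals per width class. The red curve lies to the right of the grey one, with medians of 468 and 357 bp.

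The strength of H3K9me3 gave the same order of shares. Each interval was placed by the lower of its 2 replicate −log10 q values, which the authors' peak caller gave. Of the intervals between 1.3 and 5, 4.57% were co-marked, between 5 and 10 it was 7.45%, between 10 and 20 it was 12.4%, and at 20 or more it was 20.4% (208 of 1022). The authors' fold enrichment of H3K9me3 had a median of 4.10 at co-marked and 3.75 at H3K9me3-only intervals in replicate 1, and of 4.27 and 3.82 in replicate 2. H3K36me3 intervals with H3K9me3 had a median fold enrichment of 4.72 in replicate 1 and 4.71 in replicate 2, against 4.25 and 4.21 for those without. These values come from the lists that chose the intervals and are a description only.

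In bins of 1 Mb, placed by interval centres, co-marked intervals were found in 1445 of the 2651 bins with any H3K9me3 interval (54.5%). They were spread unevenly over these 1445 bins: 242 bins with 10 or more intervals had 50.01% of all, whereas 286 bins had only 1. The 27 fullest bins, 1% of the total, held 13.5% of the co-marked intervals. H3K9me3-only intervals reached 11.4% in their own 27 fullest bins and H3K36me3 intervals 5.06%. Grouping in bins was therefore also seen for H3K9me3 without H3K36me3. When only the 20000 strongest peaks per library were kept, the fullest 1% of bins held 26.7% of the 771 co-marked intervals left. Such a share also depends on the number of intervals, which differs between these sets and settings. No H3K9me3-only share was set beside the 26.7%, so it does not measure stronger grouping. Among 2135 bins with at least 20 H3K9me3 intervals, 911 had no co-marked interval and 188 had a share of at least 25%.

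The 10 bins with most co-marked intervals held 604 of them (7.07%). First was the start of chromosome 4, bases 1 to 1000000, with 108 of 446 H3K9me3 intervals. Second was chromosome 12 from 133000001 to 134000000, with 89 of 200, the widest of the 10 bins by median width (1179 bp) and the highest in median H3K9me3 fold enrichment (7.14 and 8.67 in replicates 1 and 2). Chromosome 1 from 247000001 to 248000000 had 65 of 236, and chromosome 7 from 64000001 to 65000000 had 61 of 263. Chromosome 8 from 19000001 to 20000000 had 54 of only 69, a share of 78.3%. Chromosome 15 from 25000001 to 26000000 had 53 of 513, the lowest share of the 10 at 10.3%. The others were chromosome 5 from 179000001 to 180000000 (51 of 96), chromosome 2 from 224000001 to 225000000 (45 of 113), chromosome 5 from 58000001 to 59000000 (40 of 89) and chromosome 3 from 44000001 to 45000000 (38 of 227). The bins on chromosomes 16 (3000001 to 4000000), 15 (71000001 to 72000000) and 5 (178000001 to 179000000) also had 38 each and came after it in chromosome order.

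The 10 leading bins differed in acetylation. On chromosome 8, 35 of the 54 co-marked intervals carried at least 1 acetyl mark in both of its lists, on chromosome 2 it was 18 of 45, and on chromosome 5 at 58000001 it was 18 of 40. These 3 bins had the lowest median H3K9me3 fold enrichment of the 10 in replicate 1, with 3.69, 3.65 and 3.76. In replicate 2 they had 3.68, 3.94 and 3.93, and the bin on chromosome 15, which had no acetylation, was at 3.91. Their median widths of 306, 386 and 362 bp were near those of the bins on chromosomes 7 and 15 (346 and 355 bp). In the bins on chromosomes 1, 7 and 15 and on chromosome 5 at 179000001, 0 of 65, 61, 53 and 51 co-marked intervals had an acetyl mark. The leading bin on chromosome 4 had 1 of 108, that on chromosome 3 had 1 of 38, and that on chromosome 12 had 6 of 89. Bins were ranked by the rule's own count, and no test was made between them.

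**Figure D3:**
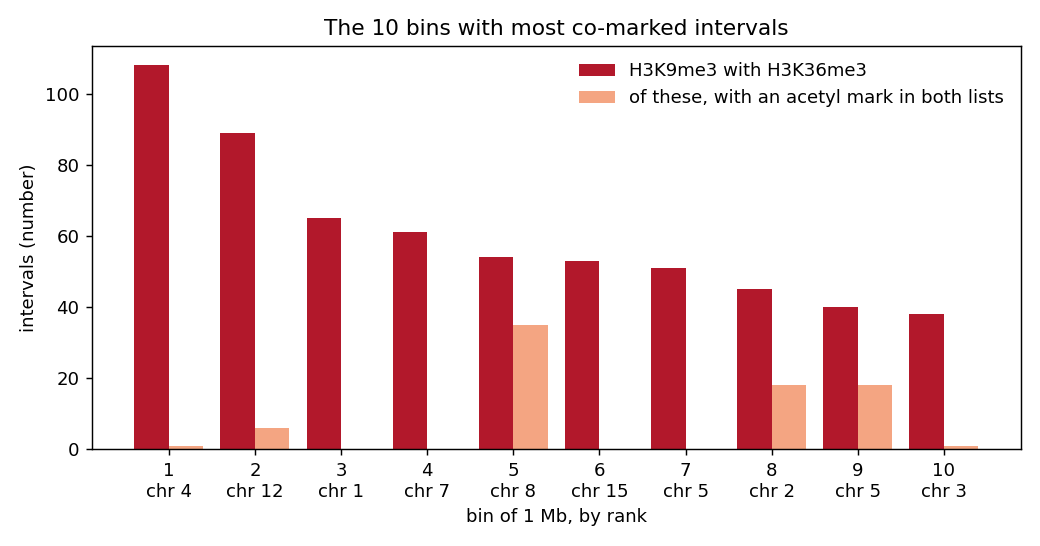
Number of co-marked intervals (red) in each of the 10 bins of 1 Mb with most of them, and how many of these had at least 1 of the 5 acetyl marks in both lists (orange). Orange bars are tall for the fifth, eighth and ninth bin, with 35, 18 and 18 intervals, and at most 6 elsewhere.

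On a finer scale, neighbouring co-marked intervals had a median gap of 7.49 kb, and 51.8% of gaps were 10 kb or less. Joining intervals across such gaps gave 4125 runs, of which 2347 were single intervals (27.5% of all co-marked intervals) and 298 had 5 or more, together 2512 intervals (29.4%). The fullest run lay on chromosome 5 from 179664709 to 179716838 (52.1 kb) and held 43 co-marked intervals, all of the H3K9me3 intervals in that span. Next was chromosome 12 from 133615672 to 133735914 (120.2 kb) with 38 of 43. A run on chromosome 4 from 478929 to 532073 had 31 of 32, one on chromosome 7 from 64128101 to 64168888 had 28 of 36, and one on chromosome 15 from 25624038 to 25680863 had 26 of 34. In these 5 runs, H3K27me3 was called in both lists at 2 co-marked intervals, both in the chromosome 12 run, and BRD2 at 0. Over all co-marked intervals the shares were also low, 1.33% for H3K27me3 and 0.679% for BRD2. These counts therefore do not set the runs apart.

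The 9 other targets were then compared between the sets. Their lists took no part in the choice of intervals. The rule did favour wider and stronger H3K9me3 intervals, which can meet other lists more often, so the values are not free of it. Each is the percent of intervals with a peak of the target sharing 1 bp or more, per library. The smallest two-sided exact p for 2 libraries against 2 is 0.333 and regions are not replicates, so no test was made. Both library values, the SD between them and the number of autosomes with the same direction in both libraries are given instead. Autosomes of the same libraries are not replicates either.

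**Figure D4:**
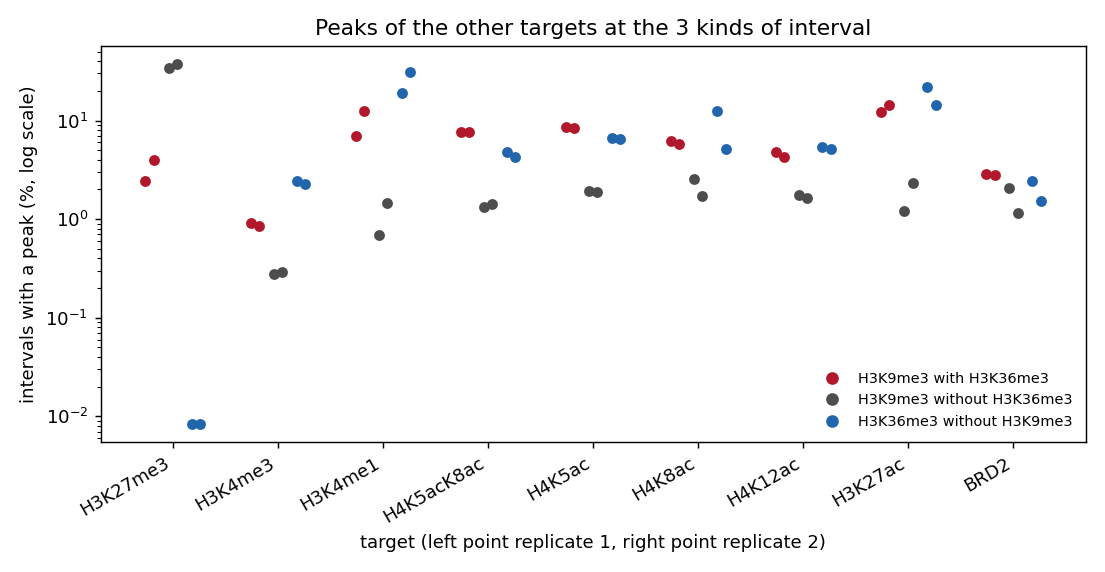
Percent of intervals with a peak of each other target, on a log axis, for co-marked (red), H3K9me3-only (grey) and H3K36me3-only (blue) intervals, with the left point of a pair for replicate 1 and the right for replicate 2. Red lies below grey for H3K27me3 (3.20% against 35.9% on average) and above grey for all other targets.

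H3K27me3, the Polycomb mark of silenced developmental genes, was the target with the greatest difference in percentage points. It met 209 co-marked intervals in replicate 1 (2.45%) and 338 in replicate 2 (3.96%). H3K9me3-only intervals met it far more often, in 34.2% and 37.5%. The difference was -32.7 ± 1.23 percentage points (SD, n = 2), well over the spread between the libraries, and was negative in both libraries on 21 of 21 autosomes. Peaks in both H3K27me3 lists were found at 114 co-marked intervals (1.33%), against 26.3% of all H3K9me3 intervals. Among H3K36me3-only intervals the mark was rarer still, at 0.00843% in either library. Against H3K9me3-only intervals from bins that also held a co-marked one, the difference was -35.6 percentage points. Keeping only peaks with a −log10 q of 5 or more in all lists gave -21.5.

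H3K27me3 went with width and strength of H3K9me3 in both sets. It was found at 0 of 826 co-marked intervals under 200 bp in either library. That allows a share of up to 0.363%, counting error only and with intervals taken as independent. Co-marked intervals lay in groups, so the limit may be too low. At 1600 bp or more it was found at 17.3% in replicate 1 and 28.1% in replicate 2. H3K9me3-only intervals had 25.2% and 27.2% under 200 bp, and 57.2% and 63.7% at 1600 bp or more. By strength, the shares in replicates 1 and 2 were 0.339% and 0.538% at a lower −log10 q of 1.3 to 5. They were 39.4% and 57.2% at 20 or more. H3K9me3-only intervals had 30.4% and 33.3% in the first class and 73.6% and 77.8% in the second. The 114 intervals with H3K27me3 in both lists had a median width of 3174 bp against 463 bp for the rest, and 30.7% of them lay wholly inside H3K36me3 against 58.6%. H3K27me3 peaks that met any co-marked interval were weaker than those elsewhere, with a median fold enrichment of 2.99 against 3.40 in replicate 1 and 3.07 against 3.30 in replicate 2.

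H3K4me3 marks active promoters. Co-marked intervals met it in 0.913% (78 intervals) in replicate 1 and 0.843% (72) in replicate 2. H3K9me3-only intervals met it in 0.277% and 0.293%. The difference was 0.593 ± 0.0610 percentage points (SD, n = 2), and it was positive in both libraries on 16 autosomes and negative in both on 3. With 78 and 72 intervals spread over the autosomes, the direction on 1 autosome rested on few intervals. Peaks in both of its lists were found at 68 co-marked intervals (0.796%), beside 0.276% of all H3K9me3 intervals. H3K36me3-only intervals had 2.41% and 2.29%. The difference was 1.06 with intervals stitched across 1 kb and 2.09 with the 20000 strongest peaks. The peaks that met co-marked intervals were strong, with a median fold enrichment of 76.6 and 87.9 in replicates 1 and 2 against 60.9 and 66.5 for H3K4me3 peaks elsewhere. They were picked by overlap, which favours wider peaks.

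H3K4me3 was more frequent beside co-marked intervals than at their centres. The nearest H3K4me3 interval present in both lists was at a median distance of 25.4 kb, against 124.4 kb for H3K9me3-only and 25.04 kb for H3K36me3-only intervals. Within 50 kb it was found for 70.7%, 28.5% and 73.97%, in that order. At the centre of co-marked intervals, 0.316% and 0.246% of positions were inside an H3K4me3 peak in replicates 1 and 2. At 8 kb to the right it was 3.594% in both libraries. At 50 kb to the right it was 2.61% and 2.72%.

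**Figure D5:**
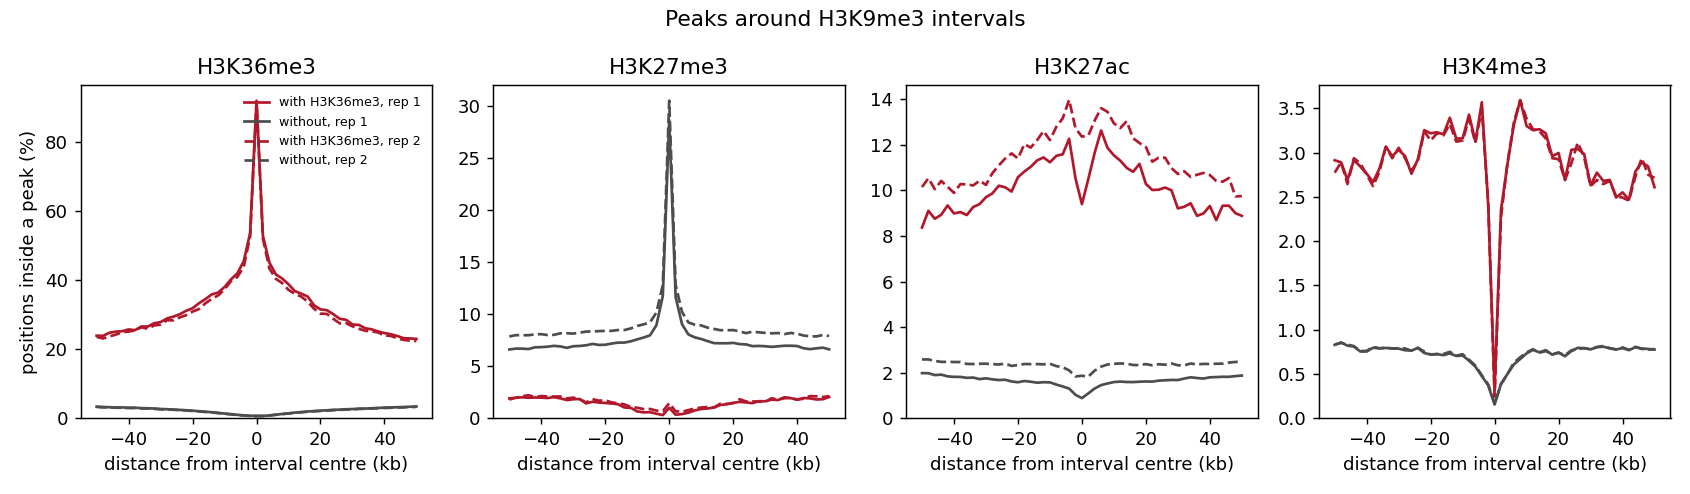
Percent of positions inside a peak at distances of up to 50 kb from the interval centre, for co-marked (red) and H3K9me3-only (grey) intervals, with replicate 1 solid and replicate 2 dashed. H3K36me3 was at 22.9% and 22.3% even 50 kb to the right of co-marked intervals, H3K27me3 was at 28.7% and 30.5% at grey and 1.01% and 1.45% at red centres, and H3K4me3 dipped at the centre of both sets.

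H3K4me1, the mark of enhancers and promoter flanks, was found at 6.97% and 12.4% of co-marked intervals and at 0.689% and 1.45% of H3K9me3-only intervals. The difference was 8.59 ± 3.27 percentage points (SD, n = 2), positive on all 21 autosomes in both libraries. H3K36me3-only intervals had more, 18.9% and 31.4%. In both lists the mark was at 549 co-marked intervals (6.43%), beside 0.833% of all H3K9me3 intervals.

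All 5 acetyl marks, which accompany active chromatin, were more frequent at co-marked than at H3K9me3-only intervals. H3K27ac, found at active promoters and enhancers, had the highest share: 12.2% and 14.5% against 1.22% and 2.34%, a difference of 11.6 ± 0.887 percentage points (SD, n = 2). H4K5ac had 8.67% and 8.34% against 1.92% and 1.89%. The doubly acetylated H4K5acK8ac had 7.57% and 7.71% against 1.32% and 1.41%. H4K8ac had 6.20% and 5.75% against 2.56% and 1.72%, and H4K12ac 4.75% and 4.31% against 1.75% and 1.65%. The direction was the same in both libraries on 21 autosomes for H3K27ac, H4K5ac and H4K5acK8ac, on 20 for H4K12ac and on 18 for H4K8ac, and no autosome had the opposite direction in both. Under 200 bp wide, H3K27ac met 13.8% and 14.6% of co-marked and 1.01% and 2.06% of H3K9me3-only intervals. At 400 to 800 bp it met 11.4% and 13.9% against 1.29% and 2.46%. At 1600 bp or more it met 15.2% and 17.3% against 1.70% and 2.84%.

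Counted in both lists, H3K27ac was at 849 co-marked intervals (9.94%; background over all H3K9me3 intervals 1.53%). H4K5ac was at 603 (7.06%; background 1.40%) and H4K5acK8ac at 562 (6.58%; background 1.24%). H4K12ac was at 258 (3.02%; background 0.649%) and H4K8ac at 253 (2.96%; background 0.782%). The mean difference over the 5 marks was 6.22 ± 0.146 percentage points (SD between replicate numbers, n = 2). This SD averages the marks by replicate number, so library differences of opposite sign partly cancel. SDs of the single marks ran from 0.0337 for H4K5acK8ac to 0.887 for H3K27ac. It was 5.02 against H3K9me3-only intervals of bins that also held a co-marked one, and 6.56 in equal windows of 1 kb. With stronger peaks it was smaller: 3.54 at a −log10 q of at least 5 in all lists and 2.37 with the 20000 strongest peaks.

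Compared with H3K36me3-only intervals, acetylation had no common order. H4K5acK8ac was higher at co-marked intervals, with 7.57% and 7.71% against 4.84% and 4.28%, and so was H4K5ac, with 8.67% and 8.34% against 6.57% and 6.42%. H4K12ac was lower per library (4.75% and 4.31% against 5.34% and 5.15%) but higher when counted in both lists (3.02% against 2.79%). For H3K27ac and H4K8ac the 2 libraries went opposite ways: H3K27ac was 12.2% against 21.8% in replicate 1 and 14.5% against 14.2% in replicate 2. Counted in both lists, these 2 marks were lower at co-marked intervals, H3K27ac with 9.94% against 11.8% and H4K8ac with 2.96% against 3.24%.

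Acetylation and H3K9me3 met on a minority of intervals. No acetyl mark was called in both lists at 7585 co-marked intervals (88.8%). At 957 (11.2%) at least 1 was, against 2.02% of H3K9me3-only intervals, and at 160 (1.87%) all 5 were, against 0.121%. H3K27ac was the only acetyl mark at 264. These 957 intervals lay in 392 bins on all 21 autosomes. Their median width was 480 bp, close to the 467 bp of intervals without acetylation. H3K9me3 fold enrichment was 3.97 and 4.02 in replicates 1 and 2, beside 4.10 and 4.31 without acetylation, and that of H3K36me3 was 5.06 and 4.89 beside 5.86 and 5.75. H3K4me1 was present in both lists at 42.1% of the acetylated and 1.92% of the other co-marked intervals.

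The combination of H3K27ac with H3K4me1 and without H3K4me3, often used to mark active enhancers, was found at 351 co-marked intervals (4.11%) and 0.226% of H3K9me3-only intervals. It was not counted at H3K36me3-only intervals, which had more of both single marks. In both lists they had H3K27ac at 11.8% against 9.94% of co-marked intervals, and H3K4me1 at 18.1% against 6.43%. H3K4me3 was found at 39 of the 849 co-marked intervals with H3K27ac (4.59%), against 0.796% of all co-marked intervals and 6.99% of the H3K9me3-only intervals with H3K27ac (103 of 1474). For each of the 5 acetyl marks the median −log10 q of peaks was higher at co-marked intervals than elsewhere in both libraries. These peaks were picked by overlap, which favours wider peaks. In fold enrichment, H4K8ac had 2.99 against 2.99 in replicate 1 and 3.30 against 3.18 in replicate 2. H4K12ac had 3.04 against 3.00 and 3.32 against 3.11. The other acetyl marks were higher in fold enrichment in both libraries. The median −log10 q of H4K5acK8ac peaks was 12.4 and 18.1 in replicates 1 and 2 against 4.83 and 6.40, and that of H3K27ac peaks was 7.88 and 21.8 against 4.15 and 5.72.

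Most BRD2 peaks at co-marked intervals in replicate 1 did not reach a q of 0.05, which is a −log10 q of 1.3. Their median −log10 q was 0.969, and in replicate 2 it was 1.90. Elsewhere the medians were 1.06 and 2.05. With peaks of any q counted, BRD2 was found at 246 co-marked intervals in replicate 1 (2.88%) and 239 in replicate 2 (2.80%). H3K9me3-only intervals had 2.05% and 1.16%. The difference was 0.832 percentage points in replicate 1 and 1.64 in replicate 2, with a mean of 1.23 ± 0.568 (SD, n = 2), and it was positive in both libraries on 14 autosomes. Its size depended on the replicate: with replicate 1 of every target left out it was 2.16 and with replicate 2 left out 0.796. It was 2.08 with stitched intervals, 0.822 at q of at most 0.05, 0.463 at a −log10 q of 5 or more and 0.165 with the 20000 strongest peaks. In equal windows of 1 kb, which removes the difference in width, it was 0.974 ± 0.781 (SD, n = 2). Width moved with BRD2 in both sets. At 400 to 800 bp, BRD2 met 2.44% and 2.92% of co-marked and 2.18% and 1.20% of H3K9me3-only intervals. At 1600 bp or more, BRD2 met 8.17% and 6.06% of co-marked and 8.12% and 4.75% of H3K9me3-only intervals.

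Most BRD2 peaks were weak, at co-marked intervals and elsewhere. Of the peaks at co-marked intervals, 8.81% in replicate 1 and 14.8% in replicate 2 had a −log10 q of 5 or more, against 8.17% and 26.7% elsewhere, so the 2 libraries differed in direction. In all, 14 co-marked intervals in replicate 1 and 34 in replicate 2 met a BRD2 peak at a −log10 q of 5 or more. The 2 lists shared 58 co-marked intervals with BRD2 (0.679%), beside 0.186% of all H3K9me3 intervals and 0.307% of H3K36me3-only intervals. Per library, BRD2 was at 2.43% and 1.53% of H3K36me3-only intervals, against 2.88% and 2.80% of co-marked intervals. Of the 58, 53 had H4K5acK8ac in both lists, 51 H4K5ac, 51 H4K12ac, 47 H3K27ac, 43 H4K8ac and 39 H3K4me1. H3K4me3 was at 7 (12.1%) and H3K27me3 at 13. Of the 225 H3K9me3-only intervals carrying BRD2 in both lists, 72 had H4K5acK8ac (32.0%, against 91.4%), 29 had H3K4me1, 41 had H3K4me3 (18.2%) and 91 had H3K27me3 (40.4%, against 22.4%). The nearest BRD2 interval was at a median of 32.0 kb from co-marked intervals, 306.8 kb from H3K9me3-only and 34.0 kb from H3K36me3-only intervals.

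The 8 co-marked intervals with the strongest H3K9me3, by the lower of the 2 fold enrichments and with at least 50% covered by H3K36me3, showed the marks together at high strength. First was chromosome 7 from 99666222 to 99675242 (9021 bp, wholly covered), with H3K9me3 fold enrichment of 16.3 and 15.3 and H3K36me3 of 25.9 and 20.8. Chromosome 16 from 3338029 to 3343941 had 15.5 and 15.1 for H3K9me3 and 25.3 in both libraries for H3K36me3. The third and the fourth were again on chromosome 7, from 6725985 to 6729582 and from 99089723 to 99094597. The fifth lay at 133690184 to 133699445 of chromosome 12 and the sixth at 120543434 to 120544439 of chromosome 1. The last 2 were at 62153507 to 62155533 of chromosome 20 and at 3431109 to 3435344 of chromosome 16. Of the 8, 6 had H3K27me3 in both lists, with fold enrichment between 3.73 and 5.41. H3K27ac was in both lists at 2 of them, H3K4me3 at 1 and BRD2 at 0. Over all co-marked intervals the shares were 1.33% for H3K27me3, 9.94% for H3K27ac, 0.796% for H3K4me3 and 0.679% for BRD2. The 8 were chosen by strength, and H3K27me3 was frequent at strong H3K9me3 in both sets. At a lower −log10 q of 20 or more it met 39.4% and 57.2% of co-marked intervals in replicates 1 and 2. For H3K9me3-only intervals it was 73.6% and 77.8%.

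The widest co-marked interval was on chromosome 15 from 25295132 to 25325231, 30100 bp long, 48.7% of it under H3K36me3, with none of the other 9 targets in both lists. It was followed by chromosome 2 from 95806052 to 95824406 (18355 bp), chromosome 8 from 146060383 to 146077509 (17127 bp), chromosome 16 from 68595976 to 68611276 (15301 bp) and chromosome 6 from 27410802 to 27425571 (14770 bp). These 4 had H3K27me3 in both lists and were also the widest intervals with that mark. The fifth was chromosome 12 from 133516463 to 133531015 (14553 bp). An overlap of 1 bp sufficed, so marks on intervals of this width need not share bases. The chromosome 2 interval had H3K4me3 fold enrichment of 57.7 and 64.6 and all 5 acetyl marks in both lists. That on chromosome 8 had H3K4me3 of 86.4 and 97.02, H3K27ac of 50.1 and 47.6, and BRD2 in both lists.

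The 5 co-marked intervals with the strongest BRD2 were between 310 and 2216 bp wide. The first, on chromosome 2 from 95873536 to 95875751, had BRD2 fold enrichment of 6.38 and 12.2 in replicates 1 and 2. The second, on chromosome 2 from 120980023 to 120980552, had 5.94 and 20.4. The others were on chromosome 12 (14412495 to 14413160), chromosome 5 (58189111 to 58189420) and chromosome 10 (89604040 to 89604442), with 5.27, 4.30 and 3.97 in replicate 1 and 13.9, 6.02 and 4.92 in replicate 2. All 5 carried the 5 acetyl marks and H3K4me1 in both lists. H3K4me3 was in both lists at the first and second and in neither list at the other three. H3K27ac fold enrichment at these sites was between 16.8 and 84.6 over both libraries, and that of H3K9me3 between 2.97 and 7.87.

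Most co-marked intervals carried none of these targets. At 7344 (85.98%) none of the other 9 was present in both lists, and at 6114 (71.6%) no peak was found in any of the 18 lists, against 70.3% and 50.2% of H3K9me3-only intervals. At 3 co-marked intervals (0.0351%) and 7 H3K9me3-only intervals all 18 lists had a peak. The number of co-marked intervals itself depended on the peaks used: it was 2602 when every list was kept at a −log10 q of 5 or more, 771 with the 20000 strongest peaks, 5338 after stitching and 15310 with the union of replicates.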

How the data were processed

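ChIP-seq peaks of 22 libraries (11 targets, 2 replicates) were used as deposited, 1 list per library. The submitters' processing notes name BWA, MACS2 and hg19, with no version, setting or control. In the deposited lists the fold enrichment is a ratio to the caller's background, and significance is given as −log10 q. Both are the authors' values. Read depth is unknown. Groups and replicate numbers come from the titles (the description of H3K9me3 replicate 2 carries another number).

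Lists were intersected with a minimum overlap of 1 bp, using Python 3.11.15, numpy 2.4.6, pandas 2.3.3, scipy 1.17.1 and matplotlib 3.10.9. Values given per library, and the differences drawn from them, used the list of that library alone. Distances were measured to the nearest interval shared by both lists of a target. Elsewhere a mark was called at an interval where both of its lists overlapped it. The interval functions were tested on simulated data. An intersection can be shorter than either peak. Upper limits for a count of 0 use 3 counts and take intervals as independent.

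Regions named in the text are the 10 fullest bins of 1 Mb, the 8 co-marked intervals with the highest lower H3K9me3 fold among those covered over at least 50%, the 5 widest, the 5 with the highest lower BRD2 fold among those with BRD2 in both lists, and the 5 widest with H3K27me3. Runs, and the bins tied with the tenth, were named after their values were seen. The intervals, the lists and the comparisons were chosen with earlier results of these data known. Alternatives were peak thresholds, the overlap, the joining of replicates, bins, windows and comparison sets.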

Additional observations from a re-analysis of the deposited data

How the results depend on the processing

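Of 82 results under alternatives, 40 were the same, 42 moved by more than the spread between replicates (or, for the number of intervals, by over 1.5 times) and 0 changed direction. The number of intervals (9 alternatives) and the share in the fullest bins (12 alternatives) cannot change sign, so the 0 says nothing about them. Where results moved, the cause was not tested. The share in the fullest 1% of bins also depends on how many intervals are left. For acetylation, the spread used was the SD of 0.146 averaged over marks by replicate number, whereas SDs of single marks were 0.0337 to 0.887. Read depth is unknown, which limits all comparisons of weak peaks.

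At a −log10 q of at least 5 in all lists there were 2602 co-marked intervals, 18.6% of them in the fullest 1% of bins, with a width ratio of 1.18 and differences of -21.5 percentage points for H3K27me3, 0.830 for H3K4me3, 3.54 for acetylation and 0.463 for BRD2. With the 20000 strongest peaks these values were 771, 26.7%, 1.16, -23.7, 2.09, 2.37 and 0.165. With stitched intervals they were 5338, 9.91%, 1.65, -39.0, 1.06, 7.90 and 2.08. With the union of replicates there were 15310 intervals, 9.94% in the fullest bins, and differences of -30.7 for H3K27me3 and 8.35 for acetylation. With at least 50% covered, the width ratio was 1.23 and the acetylation difference 5.39. At q of at most 0.05 the acetylation difference was 6.06. In equal windows of 1 kb the differences were -37.7 for H3K27me3 and 6.56 for acetylation, and against intervals of the same bins -35.6 and 5.02. Bins of 500 kb and of 2 Mb gave 17.1% and 10.4% in the fullest 1%.

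Leaving out 1 replicate gave 11469 to 12017 intervals, 10.8% to 11.7% in the fullest bins and width ratios of 1.23 to 1.32. The differences were then -32.4 to -31.0 for H3K27me3, 0.557 to 0.644 for H3K4me3, 7.28 to 7.72 for acetylation and 0.796 to 2.16 for BRD2.

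The labels do not say that replicate numbers pair libraries. For each of 55 target pairs, the replicate differences in peaks per 1 Mb bin were correlated, giving -0.287 to 0.407, with 13 values over 0.1 and 6 under -0.1. Values over 0.1 included all pairs among H3K9me3, H3K27me3, H3K4me1 and H3K27ac, so a number shared by these targets was not settled. As not every pair was over 0.1, the numbers were not used to pair in the main results. The SD of the mean acetylation difference is an exception. Under the replicate block (the mean of analyses that used lists of 1 number only) the differences were -31.7 for H3K27me3, 0.600 for H3K4me3, 7.50 for acetylation and 1.48 for BRD2.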

Other observations

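Across the 21 autosomes, the percent of H3K9me3 intervals that were co-marked had a Pearson r of 0.300 and a Spearman rho of 0.0753 with the percent of the chromosome covered by H3K36me3. With zinc finger genes per protein-coding gene, counted by symbol (ZNF, ZFP, ZSCAN or ZKSCAN with a number) in RefSeq annotation of GRCh38.p14, the values were -0.292 and -0.446. Chromosome 9, with the highest share of co-marked intervals, had 13 such genes, and chromosomes 13 and 21, with none, had shares of 6.17% and 5.28%. These are descriptions without a test: all points come from the same 4 lists, the chromosomes differ in gene content, and a count per chromosome says nothing of where in it the intervals lie. Chromosome 19, left out of both relations, had 262 such genes.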
